A study of Rattus norvegicus with 8 samples.

Results

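The interferon response genes examined here are 9 genes that cells switch on, or use to switch others on, when they sense interferon: the transcription factor genes Irf1, Irf7, Irf9 and Stat2 and the effector genes Ifit3, Isg15, Mx1, Mx2 and Oas1a. They were taken from the arrays by gene name among the non-control probes, which gave 12 probes for the 9 genes, of 45598 probes for 35901 gene names in all. All 12 probes were well above background on all 8 arrays, so all 9 genes entered the comparison of 22593 genes.

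The samples came from cultured hippocampal neurons of Wistar rats of postnatal day 0 to 1. The neurons were infected with lentiviral shRNA vectors on day 3 in vitro at a multiplicity of infection of 6. They were kept for 7 more days, to day 10. One group of 4 carried an shRNA against rat Sirt6, which encodes a NAD-dependent deacetylase, and the other group of 4 a scrambled control shRNA. Each group thus rests on 1 shRNA sequence, both groups were infected, and no uninfected culture enters the comparison. Total RNA was labelled with Cy3 and hybridised to one-colour arrays, 1 array per sample.

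Interferons are secreted proteins that warn neighbouring cells of viral nucleic acid. Type I interferons bind the receptor made of IFNAR1 and IFNAR2, the kinases JAK1 and TYK2 are activated, and STAT2 and IRF9 enter a complex, ISGF3, that binds the interferon-stimulated response element (ISRE) in the promoters of antiviral genes. Interferon gamma acts at the gamma-activated site (GAS), and IRF1 is one of its early targets. In the brain microglia, astrocytes and neurons can all respond, and part of the machinery is transcribed without infection. In RNA from a whole culture, fewer cells of a type and less RNA per cell cannot be told apart.

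Promoter windows of 7 members were found in RefSeq (build GRCr8), each running from 250 bases before to 50 after the listed start of transcription. They were searched on both strands for the ISRE core (GAAA, any 2 bases, GAAA) and for the GAS TTCNNNGAA, which reads the same on both strands. The ISRE core was present in 3 of the 7 windows, against 3.77% of 27457 promoters, and the GAS in 3, against 8.68%. The 4 windows below carry the ISRE core or are that of Irf1, and the capitals mark the matches. The window of Irf9 also held a GAS (TTCTAGGAA, bases -99 to -91 from the start), and those of Stat2 and Mx1 held neither motif in these letters.
Ifit3: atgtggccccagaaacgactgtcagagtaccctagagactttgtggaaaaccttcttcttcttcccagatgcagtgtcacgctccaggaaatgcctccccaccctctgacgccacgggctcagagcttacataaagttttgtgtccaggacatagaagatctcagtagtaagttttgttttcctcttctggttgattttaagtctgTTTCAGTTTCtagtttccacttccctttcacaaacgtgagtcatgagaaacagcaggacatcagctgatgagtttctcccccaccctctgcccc
Irf7: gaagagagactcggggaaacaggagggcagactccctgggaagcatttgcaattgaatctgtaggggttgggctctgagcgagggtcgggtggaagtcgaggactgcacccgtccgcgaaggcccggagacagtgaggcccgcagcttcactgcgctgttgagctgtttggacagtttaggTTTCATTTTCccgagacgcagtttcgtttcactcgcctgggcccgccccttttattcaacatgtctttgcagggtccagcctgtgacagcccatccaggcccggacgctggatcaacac
Oas1a: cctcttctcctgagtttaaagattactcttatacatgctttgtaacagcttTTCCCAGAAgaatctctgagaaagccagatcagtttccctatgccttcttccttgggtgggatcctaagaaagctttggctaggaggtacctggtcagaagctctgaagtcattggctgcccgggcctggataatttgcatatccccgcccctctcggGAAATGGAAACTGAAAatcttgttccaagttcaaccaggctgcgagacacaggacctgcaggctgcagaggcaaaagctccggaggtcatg
Irf1: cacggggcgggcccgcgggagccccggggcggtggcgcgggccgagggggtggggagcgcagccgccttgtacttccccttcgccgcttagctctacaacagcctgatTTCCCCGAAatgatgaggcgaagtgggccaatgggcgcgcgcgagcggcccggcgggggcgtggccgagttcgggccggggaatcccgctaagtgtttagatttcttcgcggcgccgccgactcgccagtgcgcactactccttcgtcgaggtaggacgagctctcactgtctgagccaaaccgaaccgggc

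The ISRE core lay at bases -44 to -35 from the start in Ifit3 (chr1:241527076-241527375, plus strand), on the reverse strand as TTTCAGTTTC. In Irf7 (chr1:205799974-205800273, minus strand) it lay at bases -69 to -60, as TTTCATTTTC. Oas1a (chr12:41330216-41330515, plus strand) had 2 copies that overlap by 4 bases, GAAATGGAAA from base -41 and GAAACTGAAA from base -35, and a GAS, TTCCCAGAA, from base -199. Irf1 (chr10:38417685-38417984, plus strand) had the GAS TTCCCCGAA at bases -142 to -134 and no ISRE core. A match describes the letters only and does not show binding.

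The arrays were alike in overall signal. Between 60.4% and 65.3% of probes were well above background and the median processed signal ran from 24.1 to 27.5 over the 8 arrays. The targeted gene, Sirt6, had processed signals of 486, 489, 484 and 446 on the Sirt6 shRNA arrays, against 1337, 1318, 1347 and 1343 on the scrambled arrays, a log2 change of -1.53 ± 0.040 (SE) with the groups well apart. Over all genes, 3351 were called lower with the Sirt6 shRNA and 3523 higher, at a limma p adjusted by Benjamini-Hochberg under 0.05. Of the called genes 51.3% were higher. That share was 35.2% when arrays were centred on their medians, and 64.0% and 66.7% under 2 scalings on the E1A spike-in spots that were tried after the data had been seen.

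Every one of the 9 members had a lower mean with the Sirt6 shRNA, and 5 of them passed the test: Ifit3, Irf7, Oas1a, Mx1 and Stat2. No member was called higher. The members were chosen with earlier results of these data known. The background is high: 14.8% of all genes tested were called lower and 15.6% higher. The median log2 change of the members was -0.56, where that of all genes was 0.021. Ifit3 showed the widest change and was 2.47-fold lower, whereas Irf1 differed by -0.032 ± 0.056 in log2. The groups did not overlap for Ifit3, Irf7 and Stat2, beside 16.1% of all genes for which every Sirt6 shRNA array lay below every scrambled array.

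**Figure D1:**
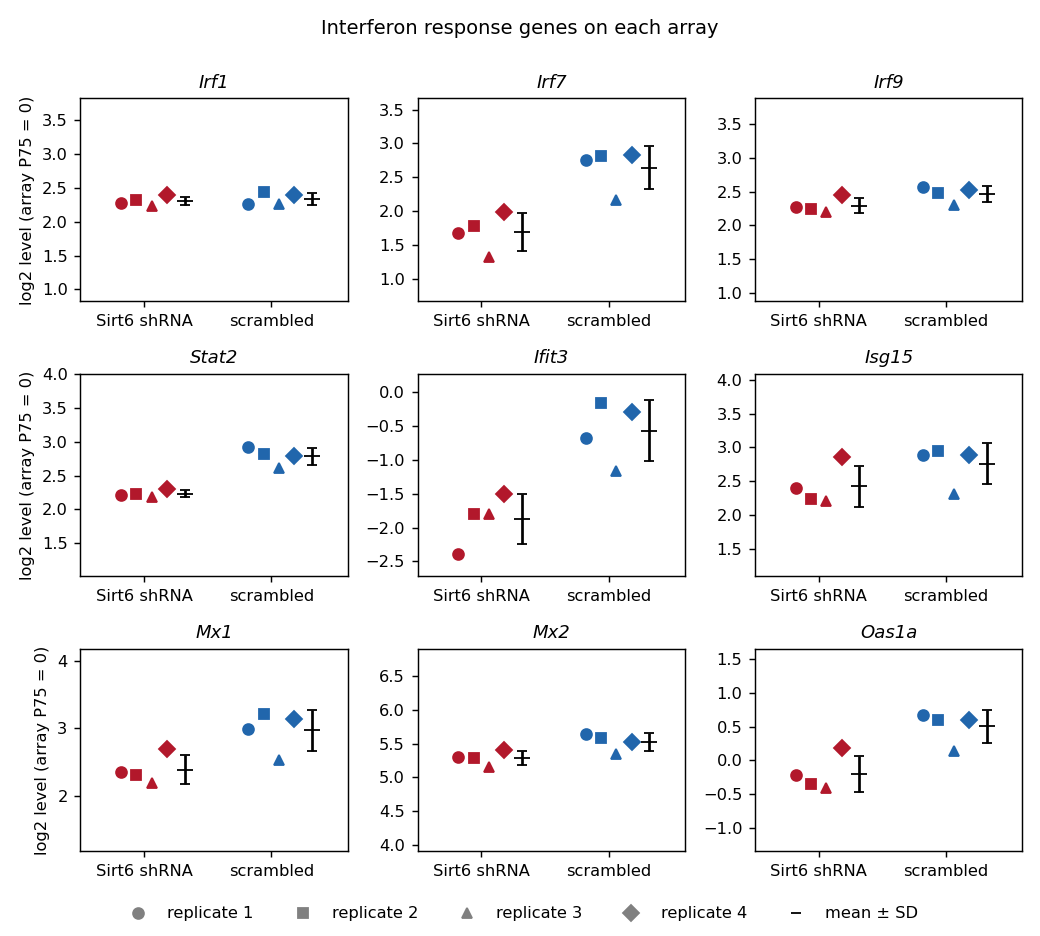
Level of each of the 9 genes on the 8 arrays (y axis: log2 processed signal minus the array's 75th percentile, each panel 3 units high). Red points are Sirt6 shRNA arrays and blue points scrambled arrays, marker shapes give the replicate number, and bars give mean ± SD (n = 4). Scrambled replicate 3 (blue triangle) is the lowest of its group and Sirt6 shRNA replicate 4 (red diamond) the highest of its group in every panel.

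In build rn4, as the files give it, the probes read for the factors lie at chr7:1580592-1580651 (Stat2, plus strand), chr1:201456889-201456948 (Irf7, minus), chr15:33745741-33745800 (Irf9, plus) and chr10:39227520-39227579 (Irf1, plus). Those of the effectors lie at chr1:238575730-238575789 (Ifit3, plus), chr11:37438580-37438639 (Mx1, minus) and chr5:173034674-173034733 (Isg15, minus). The 60 bases of the brighter Oas1a probe are placed over 686 bases, chr12:36814289-36814974 (plus). Exon and UTR positions were not analysed here.

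Levels are given below as log2 of the processed signal minus the array's 75th percentile, so 0 is the array's own 75th percentile. Among the transcription factors, Stat2, the ISGF3 subunit that carries the activation domain, was the most sharply separated. Its levels were 2.22, 2.23, 2.18 and 2.30 on the Sirt6 shRNA arrays (replicates 1 to 4), against 2.92, 2.82, 2.62 and 2.79 on the scrambled arrays. The lowest scrambled array stood clear of the highest Sirt6 shRNA array. The log2 change was -0.56 ± 0.066 (SE), or 1.47-fold lower, with a limma adjusted p of 0.000698. By p it ranked 1057 of 22593 genes, the foremost of the members. Its within-group SD of 0.097 lay at percentile 52.6 of all genes tested, so Stat2 varied between replicates about as much as a typical gene.

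Irf7, the factor that amplifies type I interferon production, had levels of 1.67, 1.77, 1.32 and 1.99 with the Sirt6 shRNA, against 2.75, 2.81, 2.17 and 2.83 with the scrambled shRNA. The other 3 scrambled arrays sat close together and replicate 3 lay nearer to the Sirt6 shRNA arrays without reaching them. The change was -0.95 ± 0.19 in log2, or 1.94-fold lower (limma adjusted p = 0.0069). In processed signal the means were 1077 ± 178 and 2034 ± 369 (SD, n = 4 each), Sirt6 shRNA first.

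Irf9, the DNA-binding subunit of ISGF3, is read by 2 probes. The brighter one gave 2.27, 2.24, 2.20 and 2.45 on the Sirt6 shRNA arrays and 2.56, 2.48, 2.30 and 2.52 on the scrambled arrays. Sirt6 shRNA replicates 1 to 3 lay below all scrambled arrays and replicate 4 lay among them. The log2 difference of -0.18 ± 0.076 did not pass (limma adjusted p = 0.119), and the other probe, whose start lies 1073 bases away, gave nearly the same value, -0.18 ± 0.078.

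Irf1, the early target of interferon gamma, had levels of 2.28, 2.33, 2.24 and 2.39 with the Sirt6 shRNA and of 2.27, 2.44, 2.26 and 2.39 with the scrambled shRNA. The groups covered nearly the same range. Of the 4 factors, Stat2 and Irf7 passed the test, while Irf9 and Irf1 did not (limma adjusted p = 0.7 for Irf1).

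The effectors were led by Ifit3, which binds and blocks viral RNA together with its IFIT partners. Its levels were -2.39, -1.80, -1.80 and -1.51 with the Sirt6 shRNA, against -0.67, -0.15, -1.16 and -0.29 with the scrambled shRNA. The groups stayed apart although both were widely spread. The change was -1.30 ± 0.26 (SE) in log2 (limma adjusted p = 0.0069), and the processed signal averaged 92.3 ± 21.1 and 224 ± 63.2 (SD, n = 4 each), Sirt6 shRNA first. Its within-group SD of 0.41 was at percentile 96 of all genes tested.

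Oas1a makes the 2-5A signal that activates RNase L. On its brighter probe it had levels of -0.21, -0.34, -0.41 and 0.18 with the Sirt6 shRNA and of 0.67, 0.60, 0.15 and 0.60 with the scrambled shRNA. Sirt6 shRNA replicate 4 reached just above scrambled replicate 3, and otherwise the groups were apart. The log2 change was -0.70 ± 0.16, or 1.63-fold lower (limma adjusted p = 0.0129). The other probe gave -0.74 ± 0.16 with no overlap. Rats carry a cluster of close Oas1 paralogs, and these probes may not tell them apart.

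Mx1, a GTPase that traps incoming viral ribonucleoprotein, had levels of 2.35, 2.31, 2.19 and 2.69 on the Sirt6 shRNA arrays and 2.98, 3.20, 2.54 and 3.14 on the scrambled arrays. Again only scrambled replicate 3 and Sirt6 shRNA replicate 4 overlapped. The change of -0.58 ± 0.16 in log2, or 1.49-fold lower, passed narrowly (limma adjusted p = 0.0305). It was no longer called in 6 of the 8 omissions of 1 array, where the adjusted p ranged up to 0.078, and it was still called when scrambled replicate 3 (0.0066) or Sirt6 shRNA replicate 4 (0.0219) was omitted.

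Mx2, the second Mx GTPase, has 2 probes that gave different sizes. The bright one (A_64_P108623, processed signals of 12159 to 15635 and not saturated) had a log2 difference of -0.24 ± 0.078 and missed the threshold (limma adjusted p = 0.053). The dim one (A_44_P1110728, signals of 55.1 to 118) changed by -0.64 ± 0.19 and passed when every probe was tested on its own (limma adjusted p = 0.037). In build rn4 they lie on chromosome 11 at 37572657 to 37572716 and 37575743 to 37575802, so their starts are 3086 bases apart. The files list the dim probe against predicted transcript records alone. The difference between the 2 probes was not tested. Their sequences, shown because the size of the Mx2 change depends on which is read, have no letters marked:
Mx2, A_64_P108623: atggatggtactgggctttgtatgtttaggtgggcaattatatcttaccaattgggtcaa
Mx2, A_44_P1110728: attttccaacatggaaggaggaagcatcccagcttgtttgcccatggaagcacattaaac

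Isg15, a ubiquitin-like protein that is conjugated to others during the response, had levels of 2.40, 2.24, 2.20 and 2.85 with the Sirt6 shRNA and of 2.89, 2.95, 2.31 and 2.89 with the scrambled shRNA. One array of each group stood among the other group: Sirt6 shRNA replicate 4 was close to the 3 high scrambled arrays, and scrambled replicate 3 was close to the 3 low Sirt6 shRNA arrays. The log2 difference of -0.34 ± 0.19 did not pass (limma adjusted p = 0.213). The 4 uncalled members thus included one with a steady level in both groups, Irf1, and one with a wide spread in both, Isg15, whose within-group SD was 0.30.

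**Figure D2:**
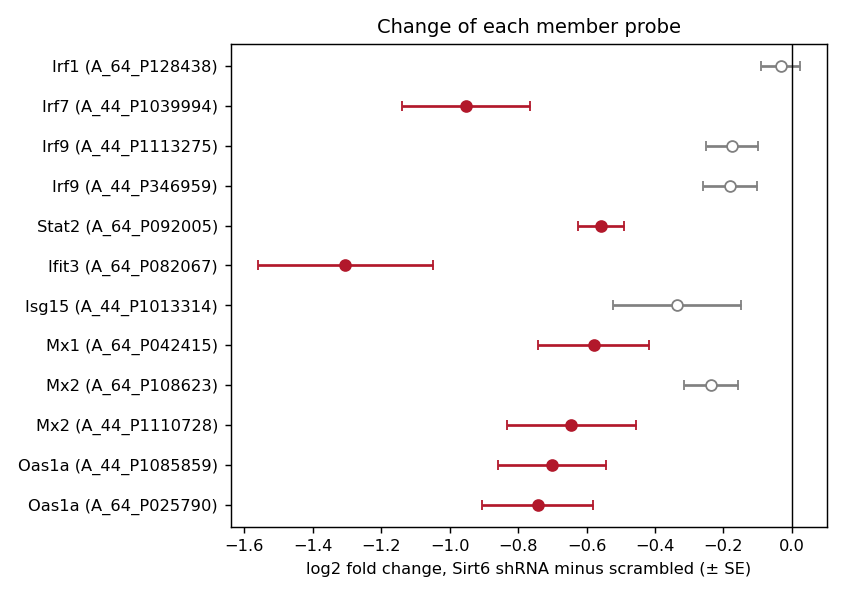
Log2 fold change of the 12 member probes, Sirt6 shRNA minus scrambled, with SE bars (x axis; n = 4 arrays per group). Filled red points passed a limma adjusted p of 0.05 over every kept probe, and open grey points did not. All 12 lie below 0, from -1.30 for Ifit3 to -0.032 for Irf1, and the 2 Mx2 probes differ in size.

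In each group 1 array stood at the same end for every member. Scrambled replicate 3 was the lowest of the 4 scrambled arrays for 9 of 9 members, as it was for 29.7% of all genes tested. Sirt6 shRNA replicate 4 was the highest of its group for 9 of 9 members, as it was for 32% of all genes. Under 6 other settings of scaling or background correction the first count was 8 or 9 and the second 9. The share of all genes ran from 19.3% (median over E1A spots) to 42.4% (normexp background correction) for the first, and from 29.7% (quantile normalization) to 52.3% (median centring) for the second. The genes differ in how far they moved with these 2 arrays. Scrambled replicate 3 lay below its group mean by 0.59 log2 units for Ifit3, 0.47 for Irf7, 0.45 for Isg15 and 0.43 for Mx1, but by 0.17 for Stat2 and 0.076 for Irf1. Averaged over the 9 members, the level was 1.76, 1.81, 1.70 and 2.08 on the Sirt6 shRNA arrays. On the scrambled arrays it was 2.45, 2.53, 2.06 and 2.49, so that scrambled replicate 3 fell just under Sirt6 shRNA replicate 4. Replicate 3 was low in the other group too. Sirt6 shRNA replicate 3 was the lowest of its group for every member but Ifit3, with a mean deviation of -0.14. The share of all genes was not counted for that array. Both arrays numbered 3 lay in slide column 3, and replicate number and slide column coincide in both groups.

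Each member's deviations from its own group mean followed the mean deviation of the other 8 members, with Pearson's r between 0.70 for Ifit3 and 0.98 for Mx1 over the 8 arrays, a description over points that share arrays and scaling. Without scrambled replicate 3 the count of members called lower was 7, adding Irf9 and Mx2, and without Sirt6 shRNA replicate 4 it was 6, adding Mx2. In each of the other 6 omissions it was 4, without Mx1.

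Markers of cell types differed between the groups to unlike degrees, beside 14.8% of all genes called lower and 15.6% higher. All 17 microglia markers had lower means with the Sirt6 shRNA, beside 10301 of 22593 genes tested. Of these 17 markers, 4 were called lower (23.5%) and 0 higher, with a median log2 change of -0.42. Their summed linear level, in units of each array's 75th percentile, ran from 49.6 to 86.3 on the Sirt6 shRNA arrays and from 68.9 to 91.9 on the scrambled arrays, and all 17 were well above background on every array. Of 12 astrocyte markers, 8 were lower and 1 higher (66.7% and 8.33%), with summed levels of 272 to 302 and 389 to 424, Sirt6 shRNA first. Neuron markers were split, 3 of 13 lower and 3 higher (23.1% each). Of 8 oligodendrocyte markers 2 were lower and 1 higher (25% and 12.5%). Of 4 endothelial markers tested 0 were lower and 1 higher, and of 4 fibroblast markers tested 0 and 2. Within the groups the microglia list did not order the arrays as the members did: it was highest on Sirt6 shRNA replicate 2, by 0.57 log2 units above its group mean, where the members averaged -0.031. On scrambled replicate 3 it was low too, at -0.19, where the members averaged -0.32. Over the 8 arrays Pearson's r between the members' mean deviation and that of a marker list was 0.49 for fibroblast, 0.42 for neuron, 0.31 for endothelial, 0.29 for microglia, 0.23 for oligodendrocyte and -0.096 for astrocyte markers, as a description. The part of these cells in the members' change was not tested.

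**Figure D3:**
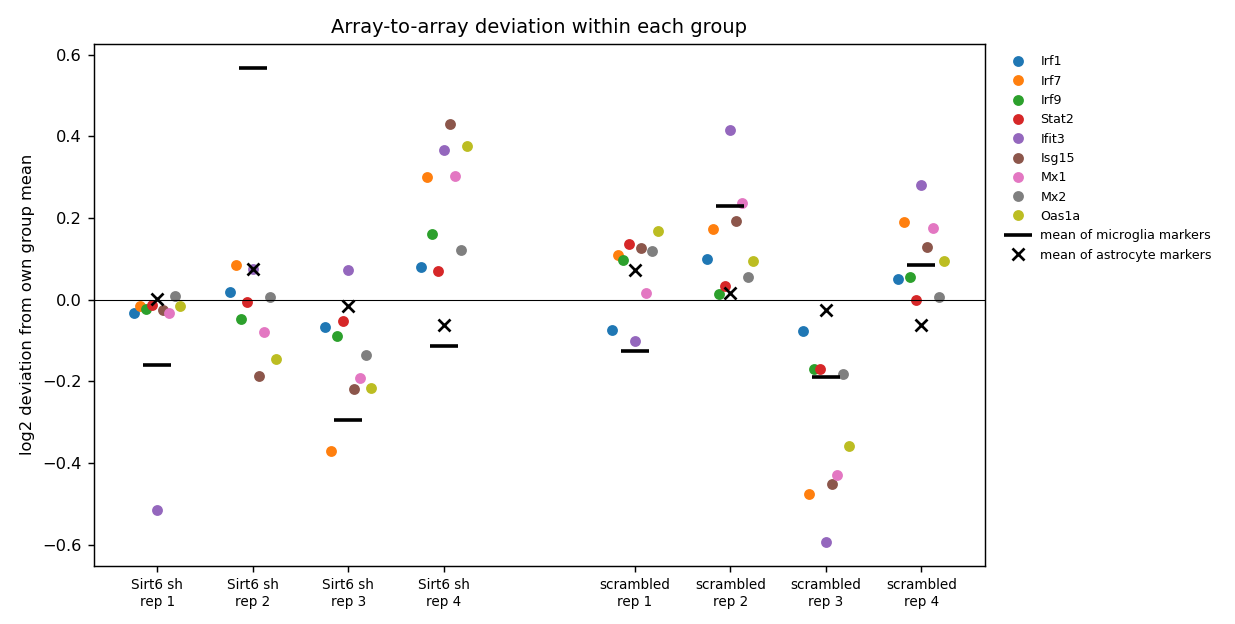
Deviation of each member gene from its own group's mean on each array (y axis, log2 units; coloured points, 9 genes), with the mean deviation of 17 microglia markers (bars) and 12 astrocyte markers (crosses). The members are all above their mean on Sirt6 shRNA replicate 4 and all below it on scrambled replicate 3, while the microglia bar is furthest from 0 on Sirt6 shRNA replicate 2, at 0.57.

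By likeness of the deviations within groups, the 10 genes nearest to the mean of the members over the 8 arrays were St6gal2, Lgals5, Irgm, Ciao3, Irgm2, Samd9, Th, Uba7, LOC100911081 and Krtap2-1, with Pearson's r from 0.97 to 0.99. Of these 10, 2 were called between the groups, beside 30.4% of all genes. They were Irgm and Irgm2, interferon-inducible GTPases, which changed by -0.68 ± 0.10 and -0.49 ± 0.11 in log2 (limma adjusted p = 0.00209 and 0.014). Uba7, which encodes the activating enzyme for ISG15, had a log2 difference of -0.078 ± 0.093 and did not pass (limma adjusted p = 0.566). These values describe 8 arrays. Of the 14170 genes compared this way, 136 had an r above 0.9.

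The rest of the pathway leaned lower too, in lists chosen with earlier results of these data known. Of 133 other interferon pathway genes listed, 125 were found on the array and 110 were bright enough to test. Of these 110, 30 were lower and 3 higher, or 27.3% and 2.73%, beside the 14.8% and 15.6% of all genes. The median log2 change was -0.17, and 83 of the 110 had a negative value. The 2 spike-in scalings gave 12 and 11 lower and 1 higher each. That was 10.9% lower, beside 5.21% of all genes, with the mean over E1A probes, and 10.0% lower, beside 3.74%, with the median over E1A spots.

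**Figure D4:**
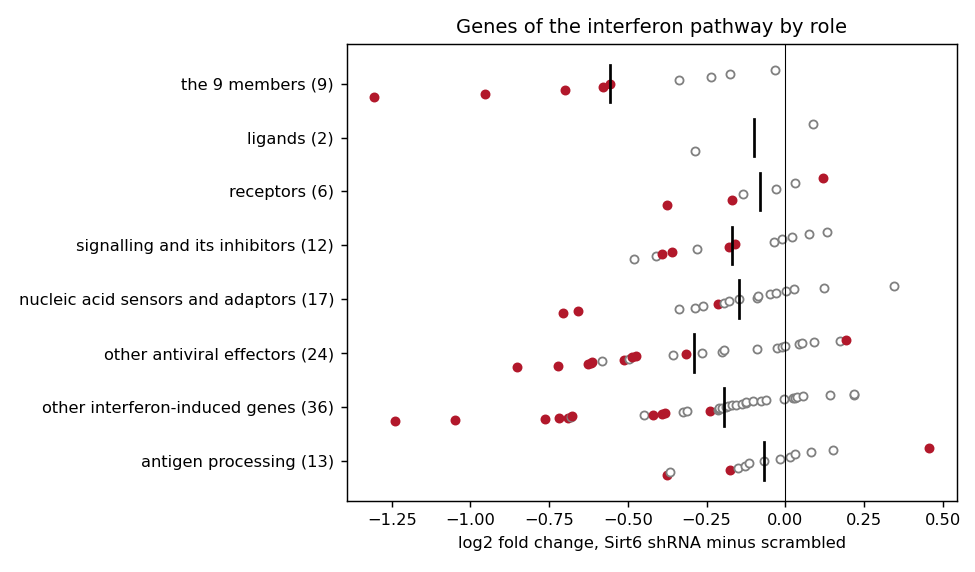
Log2 fold change, Sirt6 shRNA minus scrambled (x axis), of the 9 members and of 110 other pathway genes in 7 groups by role (number of genes in brackets). Filled red points passed a limma adjusted p of 0.05 over all genes, open points did not, and black bars mark medians. Outside the members, Cxcl9 at -1.24 is furthest to the left, and Nlrc5 at 0.46 is furthest to the right.

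Most interferon genes were too dim to test. Of 9 ligand genes on the array, where the listed Ifna1 and Ifna5 were matched to 1 gene, Ifna4 and Ifnl3 were tested. Neither passed, with log2 differences of 0.088 ± 0.083 and -0.29 ± 0.32 (limma adjusted p = 0.457 and 0.541). Ifnl3 was well above background on only 1 Sirt6 shRNA array and 3 scrambled arrays, the fewest that allow a test, so its difference lies near the floor. The other 7 were not well above background on any Sirt6 shRNA array. Among them, Ifna5 probes were on at most 3 scrambled arrays, and Ifnb1 and Ifnk on at most 1. Ifng, Ifna2, Ifna11 and Ifna16l1 were not well above background on any array. Over all probes, 61.0% to 65.3% were well above background on the scrambled arrays and 60.4% to 62.5% on the Sirt6 shRNA arrays. Whether detection of the ligand genes differed between the groups was not tested.

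Receptors and kinases changed little in size. Ifnar1 and Ifnar2, the chains of the type I receptor, changed by -0.37 ± 0.054 and -0.17 ± 0.034 in log2 (limma adjusted p = 0.0017 and 0.0083), and Ifngr2, a chain of the interferon gamma receptor, was higher by 0.12 ± 0.037 (0.0424). Of 6 receptor genes, 2 were thus lower (33.3%) and 1 higher (16.7%), beside 14.8% and 15.6% of all genes. The other 3 did not pass. Of 12 genes of signalling and its inhibitors, 4 were lower (33.3%) and 0 higher, beside 14.8% and 15.6% of all genes. The kinase genes Jak2 and Jak1 changed by -0.36 ± 0.040 and -0.16 ± 0.049 (limma adjusted p = 0.000521 and 0.0428). Irf2, an antagonist of Irf1, changed by -0.18 ± 0.056 (limma adjusted p = 0.0428). The third kinase gene, Tyk2, had a log2 difference of -0.035 and did not pass.

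Of 17 nucleic acid sensors and adaptors, 3 were lower and 0 higher, and the 17.6% lower is close to the 14.8% of all genes. Ddx58, the RNA helicase RIG-I (named Rig1 in RefSeq), changed by -0.66 ± 0.078, and its regulator Dhx58 by -0.71 ± 0.15 (limma adjusted p = 0.000685 and 0.009). Myd88, the adaptor of Toll-like receptors, changed by -0.21 ± 0.065. Ifih1, the related helicase MDA5, had a log2 difference of -0.34 and did not pass (adjusted p = 0.066 by limma). The adaptor gene Mavs and the kinase gene Tbk1 stood at 0.029 and -0.030.

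Further antiviral effectors were lower for 9 of 24 (37.5%) and higher for 1 (4.17%), beside 14.8% and 15.6% of all genes. The schlafen gene Slfn9, named Slfn13 in the files, changed by -0.85 ± 0.12, the cytidine deaminase gene Apobec1 by -0.63 ± 0.10, and the Oas1 paralogs Oas1k and Oas1i by -0.72 ± 0.17 and -0.62 ± 0.15. Probes of the Oas1 paralogs may not tell them apart from each other or from the member Oas1a, so these counts may not be of separate genes. That was not tested. The one rise was Ifit1bl, at 0.19 (limma adjusted p = 0.034), an Ifit relative that moved opposite to Ifit3. Oas1b, another Oas1 paralog, had a log2 difference of 0.052 and was not called.

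Among other interferon-induced genes 10 of 36 were lower (27.8%) and 0 higher, beside 14.8% and 15.6% of all genes. The chemokine genes Cxcl9, Cxcl11 and Cxcl10, all attractants of T cells, changed by -1.24 ± 0.14, -1.05 ± 0.19 and -0.76 ± 0.21, and the guanylate-binding protein gene Gbp6 by -0.72 ± 0.098. Gbp1, Gbp2, Gbp4 and Gbp5 lay between -0.060 and 0.22 and none passed. In antigen processing 2 of 13 genes fell (15.4%, close to the share over all genes) and 1 rose (7.69%). The peptide transporter gene Tap1 changed by -0.38 ± 0.097 and B2m, the light chain of MHC class I, by -0.17 ± 0.041, whereas Nlrc5, the activator of MHC class I genes, rose by 0.46 ± 0.042 (limma adjusted p = 0.00021).

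Of 367 tested genes with the ISRE core in their window, 18.5% were lower and 12.5% higher, beside 17.2% and 17.7% of the 12302 tested genes with a window. Of 866 with the GAS, 14.5% were lower and 17.6% higher. Among the pathway genes outside the 9 members, 11 of 39 with the ISRE core were lower and 0 higher, and 9 of 51 without it were lower. With the GAS 7 of 17 were lower and 0 higher, and 13 of 73 without it were lower. Genes called higher were not counted among the pathway genes without a motif. They can be at most 3, since 3 of all 110 pathway genes tested were higher. No test was made of these counts.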

How the data were processed

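RNA from 8 samples of cultured neurons, 4 with a Sirt6 shRNA and 4 with a scrambled shRNA, was measured on 8 arrays of 1 slide. The deposited files hold the spot intensity from Agilent Feature Extraction 11.5.1.1, per the file headers and per the submitters' processing notes, after background subtraction and detrending, with no normalization between arrays. The deposited table of log2 values equals the same signals minus 1 constant per array (SD of the difference at most 0.0029), with the 75th percentile at about 0, and served as an alternative. Its scale and direction were settled by that match.

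Outlier and control spots were left out, spots of a probe were averaged in log2, and each array's 75th percentile was subtracted. Probes well above background on at least 4 of 8 arrays were kept, 28620 in all. They were named through RefSeq accessions and symbols (GRCr8 table, names only for the probes), and the brightest probe stood for a gene. Of 45598 probes 16347 kept the file's name. The test was limma's moderated comparison (version 3.58.1, R 4.3.3, lmFit then eBayes, two-sided), adjusted by Benjamini-Hochberg over 22593 genes, with a call at 0.05. The fit was tested on 1 set of simulated data, where unchanged genes made up more of the calls than the nominal rate. That set took each gene's estimated SD as its true SD and changed far fewer genes than were called here. It therefore does not give the share of false calls in these data.

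The members and gene lists were chosen with earlier results of these data known. Genes named were all members, Sirt6, up to 4 called genes of largest change per pathway list (or, in a list with under 2 calls, the 2 with the lowest p), and the 10 genes most like the members. Other genes were named after their values were seen: Tyk2, Ifih1, Mavs, Tbk1, Ifit1bl, Oas1b, Gbp1, Gbp2, Gbp4, Gbp5 and untested ligands. The result of 1 gene that this rule names is not reported here.

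It is not stated whether samples in a group came from different cultures or animals, and p-values therefore measure only the spread among these arrays, possibly a technical one. The scrambled arrays filled slide row 1 and the Sirt6 shRNA arrays row 2, which leaves position on the slide and treatment confounded. Precision is limited by the number of arrays. Alternatives were background correction (normexp, offset 50), scaling, filters, probe choice, the variance model, a block for replicate number, and leaving out single arrays. Scaling on E1A spike-ins was chosen later, with the results in view, in 2 forms: the median over all E1A spots was tried first, its output was seen, and the mean over E1A probes well above background on all arrays was then taken as less noisy. Both are reported.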

Additional observations from a re-analysis of the deposited data

Results flagged for a closer look

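Of the 26 sets of 4 arrays examined, the 12 member probes and that of Sirt6 in 2 groups, 5 had 1 array far from the other 3, and chance marks about 1 in 20 such sets. The array was scrambled replicate 3 each time, and it was the low one. The gap to the nearest other scrambled array, as a share of the group's whole range, was 0.878 for Irf7, 0.898 for Isg15, 0.861 for the dim Mx2 probe, and 0.857 and 0.938 for the brighter and dimmer Oas1a probes. The levels of that array were 2.17, 2.31, -1.98, 0.15 and -0.66, against 2.75, 2.89, -1.51, 0.60 and -0.15 on the nearest scrambled array. These 5 sets share 1 array and genes that vary together, so they are not 5 separate events.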

How the results depend on the processing

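Ifit3, Irf7, Oas1a, Stat2 and Sirt6 were called lower in each of 21 alternatives, with adjusted p (limma) up to 0.0435, for Oas1a. Isg15 and Irf1 were called in none of the 21. Irf1 turned positive under both spike-in scalings (0.042 and 0.060) and without scrambled replicate 2, and ranged from -0.059 to 0.0013 over the omissions of 1 array. Mx1 was called in 12 of 21, and lost with no filter on dim probes (limma adjusted p = 0.0579) and under both spike-in scalings (0.0893 and 0.108). Mx2 was called in 9, among them the mean of its probes (-0.44 in log2, limma adjusted p = 0.0381), and Irf9 in 2, with normexp (0.038) and without scrambled replicate 3 (0.0428). Leaving out 1 array at a time gave 4 to 7 members, 23 to 38 other pathway genes and 5312 to 6590 genes in all. Both spike-in scalings were chosen after seeing the data, and the second after seeing the output of the first. The first, the median over all E1A spots, called 4 members, 12 pathway genes and 2539 genes. The second, the mean over E1A probes well above background on all arrays, called 4 members, 13 pathway genes and 3270 genes, against 5, 33 and 6874 with the 75th percentile. The cause was not tested. Over all genes tested, same-numbered samples correlated in their deviations at 0.064, 0.16, 0.13 and 0.033, and 2 of 4 correlated best with their own number. The main fit did not take the numbers to pair the samples, although replicate 3 was the lowest in both groups for every member but Ifit3. Replicate number coincides with slide column, and an effect shared by samples of 1 number or column was not tested. With the replicate block 6 members were called, adding Mx2 (limma adjusted p = 0.0294), with 40 pathway genes and 6425 genes. The SE of every member was smaller with the block, at 0.059 for Irf7, 0.10 for Mx1, 0.11 for Oas1a and 0.13 for Isg15. Without the block these were 0.19, 0.16, 0.16 and 0.19. The log2 change of Sirt6 with the block was -1.53. With 4 arrays per group the differences of Isg15 and Irf9 could not be told from the spread.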
